A study of Mus musculus with 2 samples.

Results

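The gonadotrope identity genes are 7 genes by which the gonadotropin-secreting cells of the pituitary are known: Cga, Lhb, Fshb, Gnrhr, Nr5a1, Foxl2 and Nr0b1. They were taken by symbol from a table of 47069 Ensembl genes measured in dissociated mouse pituitary, and all 7 were found. Gonadotropes secrete luteinizing hormone and follicle-stimulating hormone, each built of a common alpha subunit and a beta subunit of its own. They respond to gonadotropin-releasing hormone (GnRH), which reaches the pituitary in pulses and acts through the GnRH receptor to raise transcription of the subunit genes. Their lineage depends on the nuclear receptor SF-1, which is the product of Nr5a1.

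The study placed primary pituitary cells in RNA-Best, a buffer that stabilizes RNA and leaves single cells intact, or in RNAlater, an established stabilizer that served as the reference. Both samples came from C57BL/6 females aged 10-12 weeks that were cycling at random, and no hormone treatment is given in the labels. Each was a pool of 500000 to 700000 cells from 5 glands. The glands were broken up with collagenase and pancreatine, the cells were washed and placed in M199 medium with serum, and they then went straight into the reagent. The pools were bulk samples of all pituitary cell types, the stage of the estrous cycle in each is not given, and fewer gonadotropes and less RNA per gonadotrope cannot be told apart.

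Poly(A) RNA was sequenced in 1 library per stabilizer. The depth was 53915047 counts for RNA-Best and 44917492 counts for RNAlater. No test between the stabilizers was possible, and the stabilizer, the pool of cells and the library preparation cannot be told apart. Values are CPM, which are counts scaled to 1e6 per library. The 95% intervals given after values reflect the counting of reads alone, and PCR copies are not independent molecules. Log2 ratios are of RNA-Best to RNAlater with 0.5 CPM added to both values. Plain ratios and their intervals have nothing added.

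The upstream sequences of 3 members are shown because 1 member encodes a factor that acts on others. The proteins of Nr5a1 and of the immediate-early gene Egr1 are known to bind the Lhb promoter. RefSeq windows on GRCm38.p6 were matched by symbol for 6 of the 7 members, and Nr5a1 had no entry. The 250 bases before the annotated start were searched on both strands for AAGGNCA, the SF-1 motif, for GNGGGGGNG, an EGR1 motif, and for TAATCC, a PITX1 motif. The windows of the 3 members with any match are printed with the matches in capitals. They lie on chromosome 7, 45420696-45420945, plus strand for Lhb, on chromosome 4, 34893529-34893778, plus strand for Cga and on chromosome 5, 86197902-86198151, minus strand for Gnrhr.

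Lhb: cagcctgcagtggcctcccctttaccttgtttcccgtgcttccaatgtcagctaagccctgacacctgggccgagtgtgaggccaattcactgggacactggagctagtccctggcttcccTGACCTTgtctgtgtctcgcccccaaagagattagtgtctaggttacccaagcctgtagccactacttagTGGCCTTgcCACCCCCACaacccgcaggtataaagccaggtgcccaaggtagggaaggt

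Cga: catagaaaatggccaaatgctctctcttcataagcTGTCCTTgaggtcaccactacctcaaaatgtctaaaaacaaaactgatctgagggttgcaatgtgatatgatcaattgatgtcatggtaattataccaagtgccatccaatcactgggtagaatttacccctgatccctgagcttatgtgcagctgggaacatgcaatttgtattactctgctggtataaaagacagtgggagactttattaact

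Gnrhr: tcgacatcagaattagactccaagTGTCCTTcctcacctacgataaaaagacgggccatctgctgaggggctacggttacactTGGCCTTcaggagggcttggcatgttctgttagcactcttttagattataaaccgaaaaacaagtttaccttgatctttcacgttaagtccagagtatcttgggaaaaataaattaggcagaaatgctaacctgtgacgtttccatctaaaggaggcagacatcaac

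In Lhb, AAGGNCA matched at -129 to -123 and at -59 to -53 from the RefSeq start, and GNGGGGGNG matched at -50 to -42. All 3 matches lay on the minus strand, and none overlapped another. Cga had 1 match to AAGGNCA, at -215 to -209. Gnrhr had 2, at -226 to -220 and -167 to -161. TAATCC was matched in none of the 6 windows, and the windows of Fshb, Foxl2 and Nr0b1 held none of the 3 motifs. Of 32851 RefSeq promoter windows, 17.5% held AAGGNCA, 17.0% held GNGGGGGNG and 6.25% held TAATCC. A match describes the letters only. RefSeq and GENCODE M21 place some starts differently. The M21 starts of Lhb, Fshb and Nr0b1 lie within the windows searched, and the window of Foxl2 lies wholly after its M21 start, so that the absence of a match there describes these windows only.

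The 3 hormone subunit genes were the most abundant members in both libraries and were higher in RNA-Best, whereas by total count the receptor gene and the genes of 2 transcription factors, Nr5a1 and Nr0b1, differed by less than counting error. Cga had the highest ratio, 1.51, and Foxl2 was the only member whose interval lay below 1, at 0.639. No member reached a 2-fold difference. By CPM, 4 of the 7 members were higher in RNA-Best. Among all 16504 genes that averaged 1 CPM or more, the 7 members included, 33.0% were higher in RNA-Best. The counting interval lay wholly above 1 for 3 members and wholly below 1 for 1 member, against 20.2% and 51.2% of all genes. Of 4 other ways to scale the libraries, upper quartile scaling gave 5 members with an interval above 1, with Gnrhr and Nr5a1 added. At least 2-fold higher were 0.273% of all genes and at least 2-fold lower 4.99%.

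**Figure D1:**
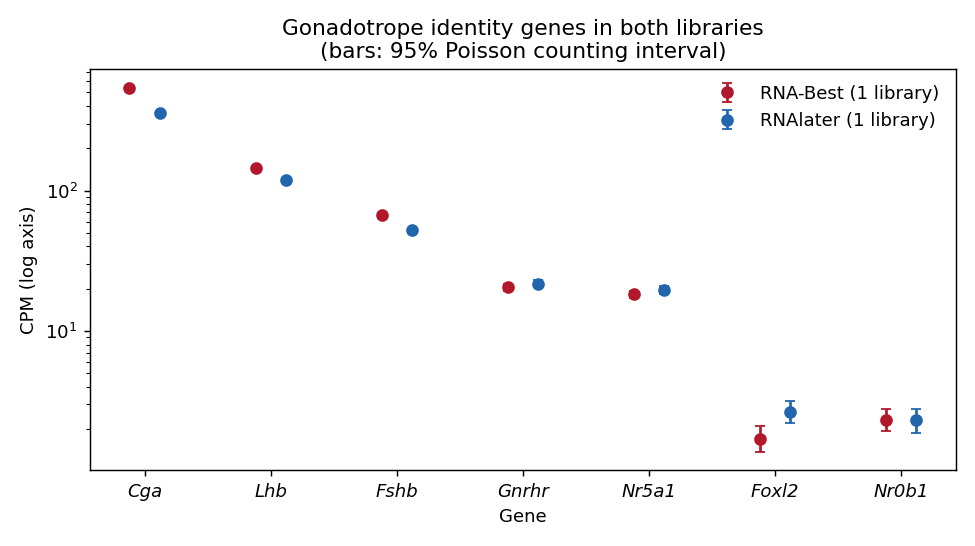
CPM of each gonadotrope identity gene on a log axis, with 1 point per library and bars for the 95% Poisson counting interval, which are smaller than the points for the abundant genes. The levels run from 542 CPM for Cga to 1.71 CPM for Foxl2 in RNA-Best, and the points of Cga, Lhb and Fshb are higher in RNA-Best.

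Cga encodes the alpha subunit common to both gonadotropins and to thyrotropin, so that thyrotropes express it too. The gene (ENSMUSG00000028298.10) lies on chromosome 4, 34893779-34907370, plus strand, in GRCm38, and has 3 annotated transcripts. It was counted 29241.5 times in RNA-Best, which is 542 CPM (interval 536 to 549), and 16087 times in RNAlater, which is 358 CPM (353 to 364). The intervals lay far apart, and the ratio was 1.51 (1.49 to 1.54), a log2 ratio of 0.60. Of all genes tested, 97.1% had a lower log2 ratio than Cga. Cga alone made up 68.1% of the summed CPM of the 7 members in RNA-Best and 62.2% in RNAlater.

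Lhb encodes the beta subunit of luteinizing hormone. It is a small gene of 3 exons on chromosome 7, 45420820-45421897, plus strand (ENSMUSG00000100916.1). Its counts were 7792 in RNA-Best and 5372 in RNAlater, or 145 CPM (141 to 148) and 119.6 CPM (116 to 123). The RNA-Best level was the higher, with a ratio of 1.21 (1.17 to 1.25) and a log2 ratio of 0.27. The exons of Lhb share 138 bases with those of Ruvbl2, a gene of the opposite strand, or 20.4% of the exonic length of Lhb. Ruvbl2 was counted 1498 and 1345 times in RNA-Best and RNAlater, fewer than Lhb in both.

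Fshb encodes the beta subunit of follicle-stimulating hormone and lies on chromosome 2, 107056140-107059656, minus strand (ENSMUSG00000027120.6). It was counted 3619 times in RNA-Best and 2336.5 times in RNAlater, or 67.1 CPM (65.0 to 69.3) and 52.0 CPM (49.9 to 54.2). These intervals did not overlap, and the ratio was 1.29 (1.22 to 1.36), a log2 ratio of 0.36. No other gene is annotated over Fshb, but its RNAlater count held a fraction of a read, as did the RNA-Best count of Cga. The exons of Cga share 305 of 954 bases with Platr9, a noncoding gene of the opposite strand that was counted only 68 and 57.75 times.

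Subunit mRNAs can be compared within a library, which is free of any scaling between libraries. Per length of the longest annotated transcript, the level of Cga was 767 CPM per kb in RNA-Best and 507 CPM per kb in RNAlater. Lhb had 213 CPM per kb in RNA-Best and 176 CPM per kb in RNAlater, and Fshb was lower than Lhb in both. The alpha subunit mRNA exceeded the sum of Lhb and Fshb per length by a factor of 3.01 (2.94 to 3.07) in RNA-Best and 2.42 (2.36 to 2.49) in RNAlater. With Tshb, the thyrotropin beta subunit gene, added to the beta subunits, the factors were 2.87 (2.81 to 2.93) and 2.34 (2.28 to 2.41). The excess of alpha over beta subunit mRNA was larger in RNA-Best by more than counting error. The longest annotated transcript of Tshb has 4396 bases, and a shorter one would raise its level per length.

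Between the beta subunits the libraries were closer. Lhb exceeded Fshb per length 5.08-fold (4.88 to 5.29) in RNA-Best and 5.43-fold (5.17 to 5.70) in RNAlater. The ratio of Lhb between the libraries was 0.936 times that of Fshb, with an interval of 0.879 to 0.997 that ends just short of equality. The ratio of Cga was 1.25 times that of Lhb (1.20 to 1.30) and 1.17 times that of Fshb (1.11 to 1.24), so the mRNA of the common subunit stood apart from both beta subunits.

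Gnrhr encodes the G protein-coupled receptor through which GnRH acts. The gene (ENSMUSG00000029255.8) lies on chromosome 5, 86180754-86197901, minus strand. It was counted 1102 times in RNA-Best, or 20.4 CPM (19.3 to 21.7), and 979 times in RNAlater, or 21.8 CPM (20.5 to 23.2). The intervals overlapped, and the ratio of 0.938 had an interval of 0.860 to 1.02. Its log2 ratio was -0.09. By total count and under 3 of the other 4 scalings the interval included 1, and under upper quartile scaling it lay above 1, at 1.01 to 1.20.

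Nr5a1 encodes SF-1, an orphan nuclear receptor that activates Lhb, Cga and Gnrhr. It lies on chromosome 2, 38692656-38714542, minus strand (ENSMUSG00000026751.14). Its counts of 984 in RNA-Best and 875 in RNAlater gave 18.3 CPM (17.1 to 19.4) and 19.5 CPM (18.2 to 20.8). The intervals again overlapped, and the ratio was 0.937 (0.854 to 1.03), a log2 ratio of -0.09. Under upper quartile scaling the interval was 1.01 to 1.21, and under the other 3 scalings it included 1. The ratios of Gnrhr and Nr5a1 differed by a factor of 1.0 (0.883 to 1.13). Within a library the level of Gnrhr per length was 1.48 times that of Nr5a1 in both, with intervals of 1.36 to 1.61 in RNA-Best and 1.35 to 1.62 in RNAlater.

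Nr0b1 encodes DAX-1, a nuclear receptor without a classical DNA-binding domain that represses SF-1. It lies on chromosome X, 86191764-86195947, plus strand (ENSMUSG00000025056.4). It was counted 125 times in RNA-Best and 104 times in RNAlater, which gave 2.32 CPM in both, with intervals of 1.93 to 2.76 and 1.89 to 2.81. The levels were nearly equal, with a ratio of 1.0 whose interval of 0.766 to 1.31 was wide because the counts were few. Per length, Nr5a1 exceeded Nr0b1 4.75-fold (3.94 to 5.77) in RNA-Best and 5.08-fold (4.14 to 6.29) in RNAlater.

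Foxl2 encodes a forkhead factor that acts on Fshb and is also made by thyrotropes. This gene of a single exon lies on chromosome 9, 98955288-98958543, plus strand (ENSMUSG00000050397.3). It was counted 92 times in RNA-Best, the fewest of the members there, and 120 times in RNAlater. Its levels were 1.71 CPM (1.38 to 2.09) and 2.67 CPM (2.21 to 3.19), and the RNA-Best level was the lower. The ratio was 0.639 (0.481 to 0.845), and the log2 ratio was -0.52. Foxl2os, a noncoding gene of the opposite strand that shares 12 exonic bases with Foxl2, was counted more often, at 531 and 564, or 9.85 and 12.6 CPM. Whether the counting used strand is not given in the sources used here.

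**Figure D2:**
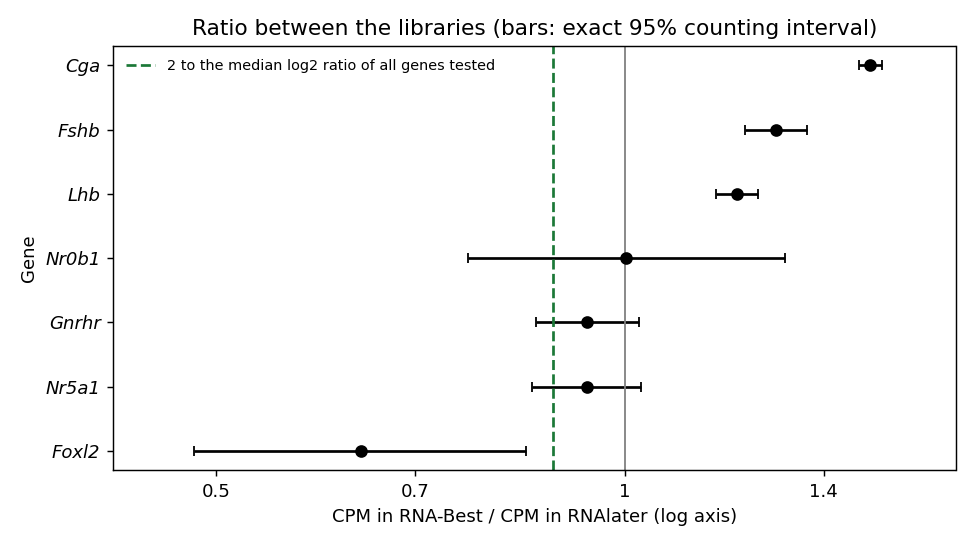
Ratio of CPM in RNA-Best to CPM in RNAlater for the 7 genes on a log axis, with exact conditional 95% intervals from counts. The intervals of Cga, Fshb and Lhb lie above 1, those of Nr0b1, Gnrhr and Nr5a1 include 1, and that of Foxl2 lies below 1. The dashed line marks the log2 median of -0.18 over all 16504 genes, on the ratio scale.

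The members fell into the same order of level per length in both libraries, Cga, Lhb, Fshb, Gnrhr, Nr5a1, Nr0b1 and Foxl2. Each gene exceeded the next by more than counting error, and the closest neighbours were Gnrhr and Nr5a1 in both libraries. From first to last the levels spanned a factor of 1464 in RNA-Best and 617 in RNAlater. By CPM without regard to length, Cga ranked 112 of all genes in RNA-Best and 198 in RNAlater. Lhb ranked 721 and 1101, and Fshb 2094 and 3543. Foxl2 ranked 15041 and 14306. In each library the genes of secreted subunits were above those of the receptor and the transcription factors.

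Of the 21 pairs of members, 16 differed in their ratio between the libraries beyond counting error, and 5 did not. The share over pairs of all genes was not computed, so the count does not set the members apart. For single genes, the interval of the ratio lay wholly above 1 for 20.2% of all genes and wholly below 1 for 51.2%. All 5 pairs that did not differ involved Nr0b1, with its 125 and 104 counts, or were the pair of Gnrhr and Nr5a1. The largest divergence was that of Cga from Foxl2, with a ratio 2.37 times as high (1.81 to 3.11).

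Across all genes the median log2 ratio fell with transcript length, from 0.28 in the class up to 1 kb to -0.90 in the class over 10 kb, and the members are short genes, with a median of 1.81 kb against 3.09 kb for all genes tested. Length is that of the longest annotated transcript, and each member was set beside the genes of its length class. Lhb, at 678 bases, had a log2 ratio 0.01 below the class median of 0.28. Cga, at 707 bases, lay 0.31 above this median and higher than 83.6% of the 2089 genes in the class. Fshb, at 1600 bases, lay 0.30 above its class median of 0.07 and higher than 84.9% of 2713 genes. Of the members, Cga and Fshb lay above the interquartile range of their classes.

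Gnrhr and Nr5a1, of 2265 and 2994 bases, both had a log2 ratio at the median of -0.09 of the 3108 genes of 2-3 kb, with 49.9% and 49.7% of the class lower. Nr0b1, at 1808 bases, lay 0.07 below its class median and within the interquartile range. Foxl2, at 3256 bases, lay 0.30 below its class median of -0.22 and under the lower quartile of -0.45. Across the 7 members the Spearman correlation of log2 ratio and length was -0.89, a description of genes that share the same 2 libraries. The part of length in the ratio of any member was not tested.

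**Figure D3:**
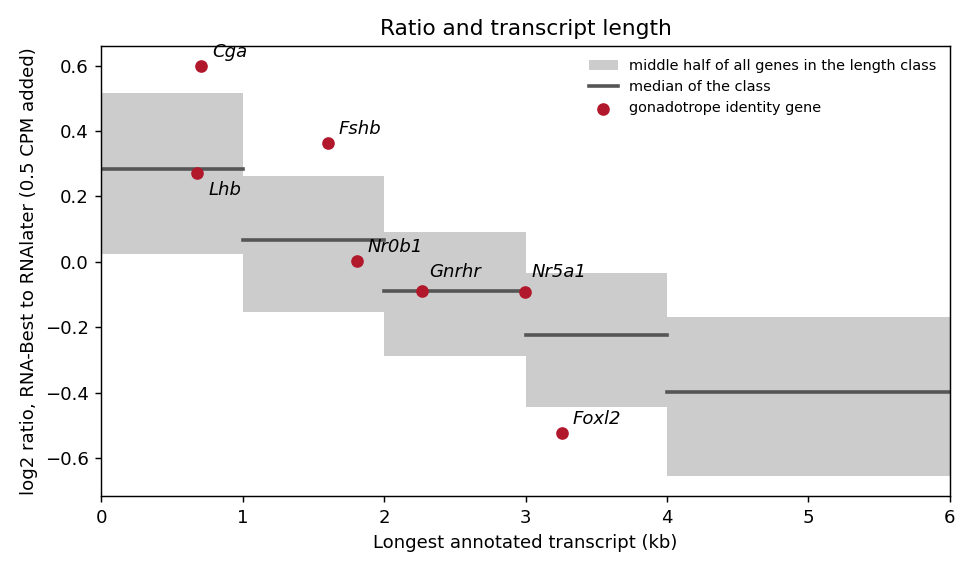
Log2 ratio of each gonadotrope identity gene against the length of its longest annotated transcript in kb. Grey bands are the interquartile range of all genes in each length class and dark lines are class medians. Lhb, Gnrhr and Nr5a1 lie on the class medians, Cga and Fshb lie above the bands and Foxl2 lies below its band.

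The direction of the small differences depended on the scaling of the libraries. By total count the median log2 ratio of all genes was -0.18. It rose to -0.06 when the prolactin gene Prl and the growth hormone gene Gh were left out of the library totals. TMM moved this median to -0.01, DESeq2 size factors moved it to -0.0036 and upper quartile scaling moved it to 0.04. All genes higher in RNA-Best then made up 44.5%, 48.6%, 49.6% and 54.3%, and 6 of the 7 members were higher under each of these 4 scalings. Gnrhr changed from -0.09 to between 0.03 and 0.14 on the log2 scale, and Nr5a1 likewise. The log2 ratios were between 0.73 and 0.83 for Cga, 0.40 and 0.51 for Lhb and 0.49 and 0.60 for Fshb. That of Foxl2 was between -0.44 and -0.33. Relative to the median of all genes, 6 of the 7 members were higher under every one of the 5 scalings, and Foxl2 was lower. This follows from the method, because a scaling multiplies all genes of a library by the same factor and so shifts the median with them.

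**Figure D4:**
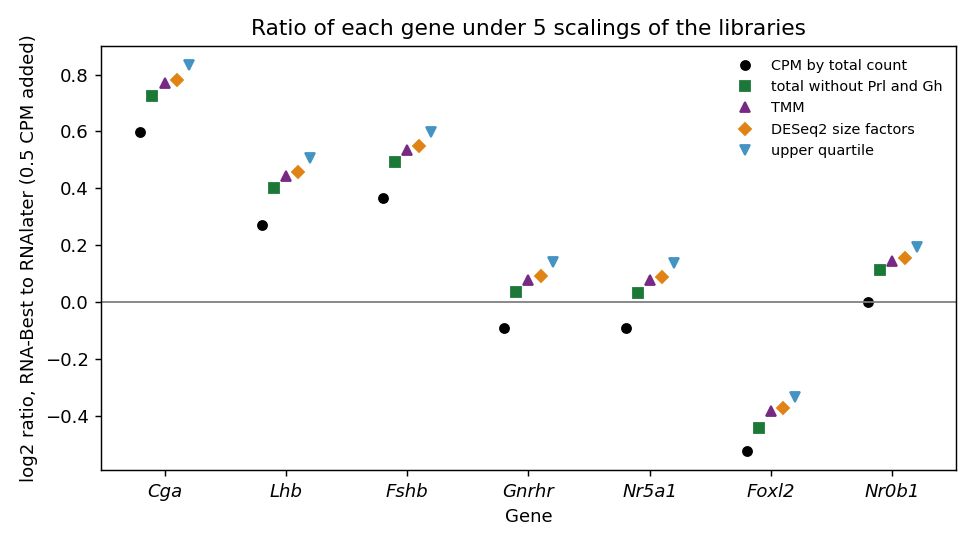
Log2 ratio of each gonadotrope identity gene under 5 scalings of the libraries, including the total without Prl and Gh. Cga, Lhb and Fshb stay above 0 and Foxl2 stays below 0, while Gnrhr and Nr5a1 are below 0 by total count and above 0 under the other 4 scalings.

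The median log2 ratio of the 7 members was 0.0016, which is 0.18 above the median of all genes. Set against genes of like length, the members were not raised as a group. Their differences from the class medians had a median of -0.0014, with 2 members above and 5 below. Of these 5, Gnrhr and Nr5a1 were at the class median, Lhb was 0.01 below it, Nr0b1 0.07 and Foxl2 0.30. Cga and Fshb were above by 0.31 and 0.30. The median log2 ratio of the 4 other pituitary hormone genes was 0.47. Prl, which encodes prolactin, had 235654 and 172302 CPM and a log2 ratio of 0.45. Pomc, the precursor of corticotropin, had 9550 and 6843 CPM and a log2 ratio of 0.48. Gh, which encodes growth hormone, was the least changed at 0.04, and Tshb the most at 0.73. The 3 gonadotropin subunit genes, at 0.27 to 0.60, lay within the range of these hormone genes.

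The 5 related lists cover GnRH receptor signalling, transcription factors, receptors and local regulators, glycan enzymes and other gonadotrope-enriched genes. Of their 64 genes, 60 reached a mean of 1 CPM, and 55 of these had a lower CPM in RNA-Best, with a median log2 ratio of -0.47. Of all genes tested, 67.0% were lower, and the median of all genes was -0.18. Under the other 4 scalings 45 to 49 of the 60 were lower and 11 to 15 were higher, where 44.5% to 54.3% of all genes were higher. By total count, 15 of the 60 lay above the median log2 ratio of all genes.

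Downstream of the GnRH receptor, Gq proteins activate phospholipase C, which releases calcium through inositol trisphosphate receptors and activates protein kinase C and MAP kinases. Of 24 genes of this route, 21 were lower in RNA-Best, 20 of them with an interval wholly below 1, and the median was -0.56. The list has a median length of 4.83 kb, and all genes of 4-6 kb had a median of -0.40. The lowest was Itpr2, an inositol trisphosphate receptor gene with a transcript of 11679 bases, with 6.64 and 20.4 CPM in RNA-Best and RNAlater, a log2 ratio of -1.55. The highest was Gna11, a Gq-class alpha subunit gene, with 79.8 and 77.9 CPM and with 0.03, whose interval includes no change. At least 2-fold lower were 3 of the 24, the inositol trisphosphate receptor genes Itpr1, Itpr2 and Itpr3.

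All 13 transcription factor genes tested that act on gonadotropin genes were lower in RNA-Best by CPM, as were 67.0% of all genes. The list median was -0.30 at a median length of 2.84 kb, and all genes of 2-3 kb had a median of -0.09. The lowest was Egr1, the GnRH-induced factor that binds the Lhb promoter. Its 1234 CPM in RNA-Best stood against 2353 CPM in RNAlater, a log2 ratio of -0.93. The longest transcript of Egr1 has 4484 bases, and all genes of 4-6 kb had a median of -0.40. The highest was Pitx1, a homeodomain factor of the whole anterior lobe, at 79.9 and 85.2 CPM and -0.09. Pitx1 was higher in RNA-Best under each of the other 4 scalings, and Isl1 under 3. Lhb was higher and Egr1 lower in RNA-Best under all 5 scalings. Fos, Jun and Atf3 of the same list were also abundant and lower by CPM. Fos had 2256 and 3213 CPM and -0.51, Jun 1453 and 2227 CPM and -0.62, and Atf3 977 and 1171 CPM and -0.26. These are levels over all pituitary cell types, and which cells gave the Egr1 reads was not tested.

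Receptors and local regulators included the activin, inhibin and steroid receptor genes. All 14 tested were lower in RNA-Best by CPM, beside 67.0% of all genes. The list median of -0.63, at a median length of 6.22 kb, was close to the median of -0.65 for all genes of 6-10 kb. Inhba, the inhibin beta A subunit gene, was lowest, at 1.06 and 3.07 CPM and -1.20, and Acvr2b, an activin receptor gene, was highest, at 1.52 and 1.65 CPM and -0.09. Acvr2b was the only one of the 14 to be higher under the other 4 scalings.

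Luteinizing hormone carries sulphated sugar chains, and 5 genes of glycan enzymes were all lower in RNA-Best by CPM, beside 67.0% of all genes. Their median was -0.30 at a median length of 3.55 kb, and all genes of 3-4 kb had a median of -0.22. Chst8, a sulphotransferase gene acting on this hormone, had 54.9 and 55.9 CPM and a log2 ratio of -0.02, which turned positive under the other 4 scalings. B4galnt3, which encodes the transferase that adds the sugar before sulphation, had 7.68 and 15.3 CPM and -0.95. B4galnt4, a paralog of it, had 17.8 and 22.1 CPM and -0.30. Fut8, a core fucosyltransferase gene, stood at -0.49. Chst9, a paralog of Chst8, stood at -0.13 with an interval that includes no change, and it was positive under DESeq2 size factors and upper quartile scaling.

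Other genes enriched in gonadotropes were mixed. Scg2, the secretogranin II gene, had 1941 and 1589 CPM and a log2 ratio of 0.29, close to that of Lhb. Nhlh2, a helix-loop-helix factor gene, had 8.49 and 8.13 CPM and 0.06, with an interval that includes no change. Tgfbr3l had 2.19 and 2.58 CPM and -0.20, also with an interval that includes no change. Foxp2, a forkhead factor gene, had 6.40 and 9.56 CPM and -0.54. Cyp11a1 was counted 2 and 3 times, which is at or under the 3 counts that a count of 0 allows.

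**Figure D5:**
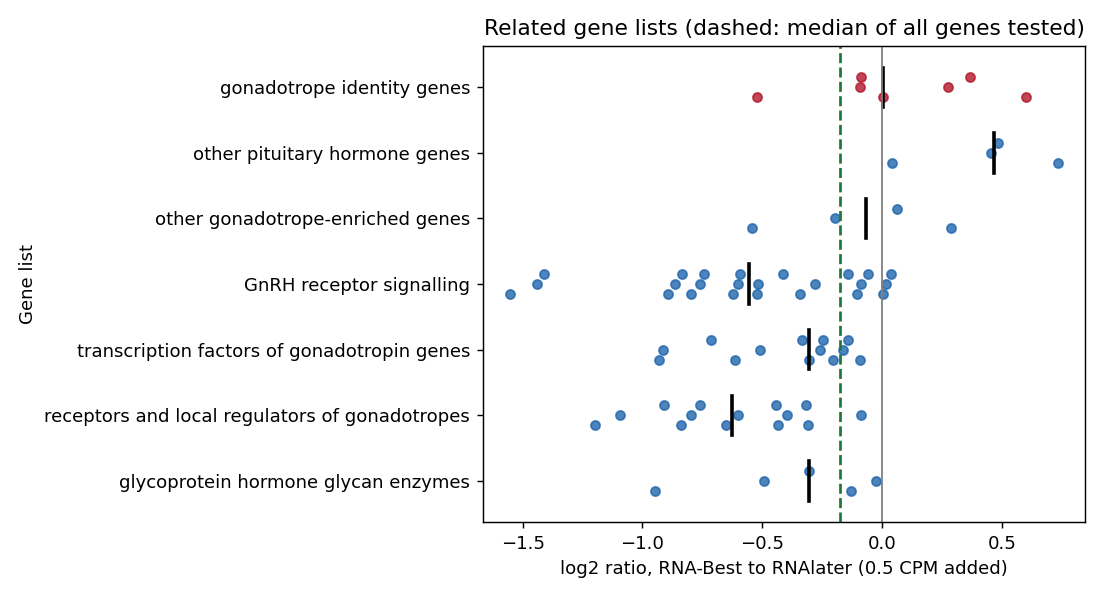
Log2 ratio of each tested gene in the gonadotrope identity list and 6 related lists, with 1 point per gene and a black bar at the list median. The identity genes have a median of 0.0016 and the other hormone genes 0.47, while the medians of the receptor, signalling, factor and glycan lists lie between -0.63 and -0.30.

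With 2 libraries a pattern across samples is a level and a ratio. The nearest gene by distance in log2(CPM + 0.5) was Sdf4 for Cga, at a distance of 0.10, Sec13 for Lhb at 0.016, Tmem258 for Fshb at 0.020 and Zfp358 for Gnrhr at 0.0038. It was Fam122b for Nr5a1 at 0.0070, Entpd2 for Foxl2 at 0.012 and Cartpt for Nr0b1, which had identical counts in both libraries. The distance was largest for Cga.

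The labelled tissue was checked by its markers. Thyrotrope genes, which share Cga and Foxl2 expression with gonadotropes, were present, with Tshb at 52.9 and 31.6 CPM in RNA-Best and RNAlater, Dio2 at 41.0 and 49.7 CPM and Trhr at 2.54 and 2.60 CPM. The level of Cga joins both cell types, and their part in the ratio of Cga was not tested. Steroidogenic and gonadal tissue also expresses Nr5a1, Nr0b1 or Foxl2. Of 11 markers of such tissue, 7 were at or under 3 counts in both libraries, 5 of them at 0 in both, and the 11 summed to 2.17 and 3.96 CPM. Only Star was tested, at 1.63 and 3.09 CPM. Hypothalamic neuron markers summed to 0.964 and 0.824 CPM over the 5 genes found of 6.

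By total-count CPM the 4 other pituitary hormone genes were higher in RNA-Best, as were 33.0% of all genes. Markers of endothelial, stem and folliculostellate, and posterior lobe cells were lower, as were 67.0% of all genes. The other scalings raise the ratio of every gene, and these markers were not counted again under them. All 8 endothelial markers were lower, with a summed 386 and 798 CPM, as were all 6 stem and folliculostellate markers, with 170.1 and 253 CPM, and all 6 posterior lobe markers, with 56.2 and 109 CPM. The part of the cell makeup in the ratios of the gonadotrope genes was not tested.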

How the data were processed

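The authors deposited 1 table of estimated counts per Ensembl gene for 2 poly(A) libraries. Per the labels, reads were aligned with STAR 2.5.1b to mm10 and counted with featureCounts 1.5.0-p1. The counts were not normalized, and 34.8% of RNA-Best and 34.4% of RNAlater values above 0 were not whole, so reads were divided between features by an option not given in the sources used here. Of the identifiers, 98.8% matched GENCODE M21 (GRCm38) with the version ignored. The versions of Lhb and Foxl2 differ from M21, so their counted exons may differ from those described.

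CPM used each library total. Counts were rounded for exact conditional binomial ratio intervals, Poisson intervals, odds ratio intervals of pairs (normal approximation), and the scaling factors of edgeR 4.0.16 and DESeq2 1.42.0 (R 4.3.3). Python 3.11.15, numpy 2.4.6, pandas 2.3.3, scipy 1.17.1 and matplotlib 3.10.9 were used. Genes needed a mean of 1 CPM. With 1 library per group, the voom model that the study used on other samples has no residual degrees of freedom, so no p-value is given. For a gene with no reads the limit was 3 counts, or 0.0556 and 0.0668 CPM for the RNA-Best and RNAlater libraries. The steps that give the log2 ratios and the ratio intervals were tested on simulated counts, and the other steps were not.

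The members and lists were chosen with earlier results of these data known. The named genes were the 7 members, every gene of the glycan, gonadotrope-enriched and hormone lists, the ends of the other related lists, overlapping genes and the nearest gene to each member. The thyrotrope genes, Star, Itpr1, Itpr3, Isl1, Fos, Jun and Atf3 were named after their values were seen.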

Additional observations from a re-analysis of the deposited data

How the results depend on the processing

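The order of the members by level per length held under the length alternatives. Under each scaling 6 of 7 members lay above the median of all genes. A scaling multiplies all genes of a library by the same factor, so this count could hardly change and is no check. Without a filter on low values 4 of 7 members lay above that median. With a mean of at least 10 CPM required, 5 members were left, 3 of them higher. Pseudocounts of 0.1 and 1 CPM and none left 4 of 7 higher.

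The factor by which Cga exceeded Lhb, Fshb and Tshb depended on length. With the union of exons it was 2.13 in RNA-Best and 1.74 in RNAlater, with the median protein-coding transcript 2.25 and 1.96, and with no division by length 2.05 and 1.76. It was larger in RNA-Best each time. The ratio of Fshb to Lhb was 0.197 and 0.184 per length and 0.464 and 0.435 without division. The cause is the length assigned. No paired analysis was possible because either stabilizer was represented by a single library, which also left no library to omit. The counts of Foxl2 and Nr0b1 limit their ratios most.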
